A study of Bos taurus with 9 samples.

Results

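Bovine endometrial epithelial cells (BEEC) were profiled by RNA sequencing after co-culture with embryos of different nutrient history, and the libraries from both pre-conditioned regimes were set together against the control libraries. The HIGHGLUC and LOWAA groups held 3 libraries each and the control group held 3, so all 9 libraries of the series were used, 6 against 3. The regime names stand for glucose and amino acid conditions whose concentrations the labels do not give, and both groups together are called stressed below. BEEC of all groups had been scraped from 3 uteri at an early luteal stage and grown in serum-containing medium, and the labels disagree on the passage number. On day 4 each monolayer received 5 morulae, and on day 8 the endometrial cells of 3 wells were pooled into 1 library. No library without embryos was analysed here, and the labels tie no library to a separate uterus or culture, so p-values reflect the spread among these libraries alone, which may be technical.

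The genes of interest were those for which all 6 stressed libraries lay on one side of all 3 control libraries in total exon reads. Of 11839 tested genes 256 (2.16%) met this rule. The stressed libraries lay above the controls for 134 genes (1.13%) and below them for 122 genes (1.03%). With uniquely matched exon reads alone, the same side without overlap was seen for 122 of the genes above (1.03% of all tested genes) and 107 of the genes below (0.904%). With the authors' quantile normalised values it was seen for 111 and 98. The rule used the values of this contrast, so the fold changes of its members are given as a description. Some genes meet such a rule whatever labels the libraries carry. How many would do so with other labels was not tested, so membership alone is not read as a response to the embryos.

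The uterus of cattle answers the embryo through type I interferon. Interferon tau, made by the trophectoderm, binds the type I interferon receptor on endometrial cells, and transcription factors that include STAT2 and IRF9 then switch on a large set of antiviral genes such as ISG15, the MX genes and the OAS genes. This answer is the classical sign of pregnancy recognition in ruminants. Glucose and amino acids are sensed by other routes, among them TXNIP, which follows glucose uptake, and the kinases that phosphorylate eIF2-alpha and so raise ATF4.

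Total exon reads amounted to 9030731, 7513432 and 6927123 in HIGHGLUC replicates 6, 10 and 14, to 10398399, 7877596 and 9248075 in LOWAA replicates 8, 12 and 15, and to 2887097, 13969325 and 10330769 in control replicates 5, 9 and 13. The floor that 0 reads leaves, 3 reads, came to 0.215 to 1.04 CPM (exon reads scaled to 1e6 per library) depending on the library. Intron reads made up 7.54% to 13.7% of exon plus intron reads in the stressed libraries and 7.05% to 10.5% in the control libraries. The cultures held keratin and stromal transcripts side by side. The summed level of 14 epithelial markers was 7884 to 8505 CPM in stressed and 7848 to 8935 CPM in control libraries, with CLDN7 and GRHL2 at 0 reads. For 11 stromal fibroblast markers it was 10749 to 13254 CPM in stressed and 11015 to 13282 CPM in control libraries, with TCF21 at 0 reads. For 9 smooth muscle and pericyte markers it was 323 to 553 CPM in stressed and 396 to 547 CPM in control libraries. The endothelial sum stayed at 2.53 to 5.20 CPM in stressed and 2.52 to 5.20 CPM in control libraries, with CDH5, KDR and CLDN5 at 0 reads. The leukocyte sum was 11.7 to 16.5 CPM in stressed and 13.3 to 17.3 CPM in control libraries, with PTPRC, CD3E and CD79A at 0 reads. The sum of the 5 embryo and trophectoderm markers in the table was 42.3 to 54.3 CPM in stressed and 43.3 to 50.2 CPM in control libraries, most of it TEAD4, with SOX2 at 0 reads. Erythrocyte markers reached at most 1.14 CPM in stressed and 0.387 CPM in control libraries. The ranges overlapped for every marker list, and 0 of the tested markers in them separated the groups. IFNT2, an interferon tau gene, was too low to be tested, with 13 reads in all 9 libraries. It had 0 to 0.254 CPM in stressed and 0.286 to 0.346 CPM in control libraries. These values lay near or under the floor of 3 reads and are not read as a difference. The part of embryo RNA in the results was not tested. In such pooled cultures, fewer cells of a type and less RNA per cell cannot be told apart.

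No gene passed the test across all genes with group as the only term of the fit. The robust quasi-likelihood test of edgeR, with the mean of both stressed groups against control and Benjamini-Hochberg adjustment over 11839 genes, called 0 genes (0.0%), and the smallest adjusted p was 1.00. At an unadjusted p under 0.05, 174 genes (1.47%) were higher and 253 (2.14%) lower in stressed libraries. DESeq2 and limma-voom also called 0 genes, with 282 and 510 genes at an unadjusted p under 0.05. The count depended on the model. The library numbers fall into runs that each hold 1 library of every group, and the labels do not explain them. With these runs as a replicate block, edgeR called 16 of 11839 genes (5 higher, 11 lower), as described in the last section. Of all tested genes 5989 (50.6%) were higher and 5850 (49.4%) lower, and the median log2 fold change was 0.0017. The genes without overlap carried small differences. Their median log2 fold change was 0.24 above and -0.24 below, and 74 of the 134 and 64 of the 122 differed by less than 0.25. The distance between the nearest stressed and control libraries had a median of 0.031 on the log2 scale above and 0.040 below. Leaving out a library widens the rule by construction. The genes above then numbered 383, 371 and 458 without control replicates 5, 9 and 13, and 211 and 227 without HIGHGLUC replicates 6 and 10. The genes below then numbered 385, 373 and 470 without those controls, and 218 and 210 without those HIGHGLUC replicates.

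At the edge of the rule the choice turned on minute distances. Just inside lay DAXX with 137 to 154.7 CPM in stressed and 154.7 to 158 CPM in control libraries, and CLTA, the clathrin light chain, with 197.1 to 211 CPM in stressed and 188 to 197.1 CPM in control libraries. Just outside lay AGAP3 with 25.7 to 32.8 CPM in stressed and 25.2 to 25.7 CPM in control libraries, and TAPBPL with 73.4 to 81.4 CPM in stressed and 81.4 to 91.8 CPM in control libraries. Differences above 1 on the log2 scale in size were seen for 5 genes above and 6 below, 8 of them known only by an identifier. Of these 11 genes, 3 above and 1 below kept their side with unique reads. In all 6 below, control replicate 5, the shallowest library, was the highest control. ENSBTAG00000040367 had 1.02, 0.263 and 5.35 CPM in HIGHGLUC, 2.64, 5.58 and 4.68 CPM in LOWAA, and 310, 6.05 and 6.39 CPM in control libraries. Control replicate 5 alone stood far above the other libraries, and without it the log2 fold change was -1.04 in place of -5.09. The 3 named genes with such differences, NDRG4, GRASP and CAMKV, chosen after their values were seen, were rare transcripts. NDRG4 averaged 1.14 ± 0.292 CPM in stressed and 0.294 ± 0.134 CPM in control libraries (SD, n = 6 and 3). The floor of 3 reads was 0.215 to 1.04 CPM in the control libraries, so the control level of NDRG4 stood near the floor and its fold change is uncertain.

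Many genes of the type I interferon response lay on the low side. CMPK2, XAF1, DTX3L, ISG15, IFIH1, ZNFX1, DDX58, OAS1X, HERC5, OAS2, MX2, IFIT3, EPSTI1 and IFIT2 were lower in every stressed library than in every control. Of 60 listed genes 50 were in the table by symbol and 49 were tested. Of these, 14 (28.6%) lay below the controls without overlap, where 1.03% of all tested genes did, and 0 lay above. The 14 genes were 11.5% of the 122 genes below. The list was chosen with earlier results of these data known. Its members were measured in the same libraries and are not independent of each other, so these shares are a description. Of the 49 members 48 were lower and 1, CXCL9, was higher (log2 fold change 0.13, with 0.014 without control replicate 13), and the median was -0.28, beside 0.0017 over all tested genes. With unique reads 12 of the 14 had no overlap, where 0.966% of all tested genes lay below. OAS1X and EPSTI1 were the exceptions. At an unadjusted p under 0.05 in edgeR, 27 of the 49 members were lower and 0 higher, where 2.14% and 1.47% of all tested genes were. Leaving out a library changed this count and the share over all genes. Without control replicate 5, 23 of 49 members (46.9%) lay below, the highest count, where 3.23% of all genes did. Without control replicate 9 or 13 it was 18 members (36.7%), where 3.14% and 3.95% of all genes did. Without a stressed library it was 13 to 17 members, where 1.29% to 1.84% of all genes did.

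Sensors of foreign RNA were among them. IFIH1, the long double-stranded RNA sensor MDA5, had 160, 196 and 175 CPM in HIGHGLUC, 145, 161 and 191 CPM in LOWAA and 201, 244 and 223 CPM in control libraries. The highest stressed library, HIGHGLUC replicate 10, stayed just under the lowest control, replicate 5. Its log2 fold change was -0.38 ± 0.10 (SE). DDX58, the RNA sensor RIG-I, had 510, 533 and 525 CPM in HIGHGLUC, 449, 429 and 531 CPM in LOWAA and 558, 632 and 613 CPM in control libraries, a log2 fold change of -0.28 ± 0.08 (SE). ZNFX1, a helicase that also senses double-stranded RNA, had 662, 615 and 669 CPM in HIGHGLUC, 617, 542 and 630 CPM in LOWAA and 736, 776 and 731 CPM in control libraries. Every stressed library of ZNFX1 lay at least 0.13 below the controls on the log2 scale.

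The ubiquitin-like modifier ISG15 also lay below the controls. ISG15, which is joined to other proteins, lies at chr16:52714626-52715665 (UMD3.1) and had 591, 660 and 582 CPM in HIGHGLUC, 564, 626 and 549 CPM in LOWAA and 754, 928 and 664 CPM in control libraries. The groups of ISG15 were barely separated, since HIGHGLUC replicate 10 with 660 CPM came close to control replicate 13 with 664 CPM. The log2 fold change of ISG15 was -0.39 ± 0.10 (SE), and -0.25 without control replicate 9, its highest library. Enzymes that join ISG15 to its targets overlapped the controls, with 284 to 366 CPM in stressed and 324 to 444 CPM in control libraries for UBA7, 12.6 to 16.2 CPM in stressed and 13.5 to 22.2 CPM in control libraries for UBE2L6, and 635 to 752 CPM in stressed and 726 to 788 CPM in control libraries for HERC6. HERC5, a ligase that attaches ISG15 in human cells, averaged 81.8 ± 12.9 CPM in stressed and 107 ± 0.97 CPM in control libraries (SD, n = 6 and 3). DTX3L, a ubiquitin ligase that pairs with PARP9, had 237, 233 and 238 CPM in HIGHGLUC, 215, 191 and 248 CPM in LOWAA and 283, 282 and 291 CPM in control libraries. Its control libraries agreed closely, and the gap to the nearest stressed library was 0.18 log2 units.

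Among the 14 genes the largest differences belonged to antiviral effectors. CMPK2, a mitochondrial nucleotide kinase, lies at chr11:90042356-90057598 (UMD3.1) and had 49.7, 53.4 and 58.99 CPM in HIGHGLUC, 50.1, 41.4 and 65.4 CPM in LOWAA and 76.2, 86.9 and 75.7 CPM in control libraries. Its log2 fold change was -0.59 ± 0.12 (SE), with -0.56 for HIGHGLUC and -0.61 for LOWAA. MX2, a dynamin-like antiviral GTPase, had 284, 513 and 464 CPM in HIGHGLUC, 373, 508 and 456 CPM in LOWAA and 716, 1155 and 531 CPM in control libraries. The control libraries of MX2 spread widely, and its log2 fold change was -0.89 ± 0.28 (SE), and -0.52 without control replicate 9. OAS2, an oligoadenylate synthetase, had 15.8, 18.8 and 18.5 CPM in HIGHGLUC, 16.2, 18.8 and 16.2 CPM in LOWAA and 20.8, 44.3 and 20.4 CPM in control libraries. Control replicate 9 was far above the other libraries, and the log2 fold change of OAS2 was -0.75 ± 0.23 (SE), and -0.24 without that library. IFIT3, a tetratricopeptide protein, averaged 112 ± 29.3 CPM in stressed and 186 ± 30.9 CPM in control libraries (SD, n = 6 and 3). Its neighbour on chromosome 26, IFIT2, which binds viral RNA, averaged 152 ± 42.1 CPM in stressed and 235 ± 49.5 CPM in control libraries. LOWAA replicate 12 was the lowest library for both, with 62.4 CPM of IFIT3 and 82.7 CPM of IFIT2. XAF1, a cell death factor induced by interferon, averaged 59.7 ± 3.18 CPM in stressed and 75.9 ± 8.68 CPM in control libraries. OAS1X averaged 87.6 ± 8.65 CPM in stressed and 116 ± 23.9 CPM in control libraries, and EPSTI1 120 ± 12.8 CPM in stressed and 141 ± 1.45 CPM in control libraries. The log2 fold change of OAS1X was -0.42, and -0.22 without control replicate 9.

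**Figure D1:**
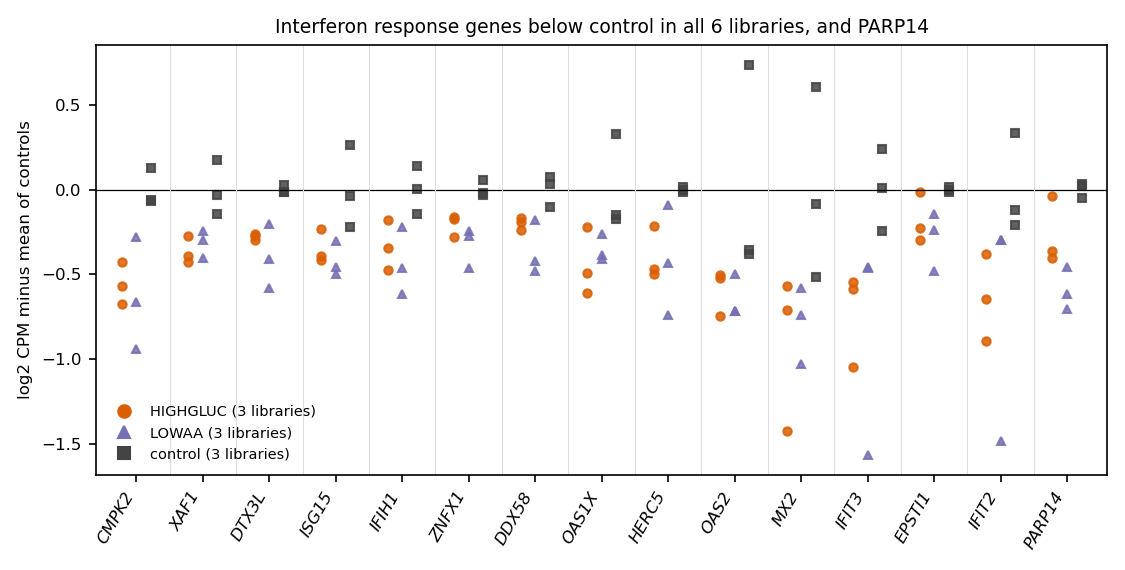
Each point is 1 library, plotted as log2 CPM minus the mean of the 3 controls, for the 14 interferon response genes without overlap and for PARP14, with HIGHGLUC (circles), LOWAA (triangles) and control (squares). For the 14 genes every circle and triangle lies below every square, and for PARP14 a single circle, HIGHGLUC replicate 6, lies just above the lowest square.

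Other members overlapped the controls. PARP14, an ADP-ribosyltransferase, had 440, 352 and 341 CPM in HIGHGLUC, 295, 277 and 329 CPM in LOWAA and 436, 462 and 458 CPM in control libraries. Only HIGHGLUC replicate 6 overlapped the controls, and the log2 fold change of PARP14 was -0.42 ± 0.09 (SE). Mx1, the other MX GTPase, ranged from 1222 to 1537 CPM in stressed and from 1520 to 2104 CPM in control libraries. Among the transcription factors of the pathway, STAT2 had a log2 fold change of -0.20 ± 0.08 (SE), while IRF9 and IRF7 had -0.04 ± 0.08 and -0.01 ± 0.07. Without control replicate 9, the log2 fold change was -0.11 for STAT2 and -0.20 for Mx1, in place of -0.34, and without control replicate 13 that of IRF7 was 0.046. The chemokine CXCL10 ranged from 153 to 234 CPM in stressed and from 185 to 289 CPM in control libraries, with a log2 fold change of -0.34, and -0.20 without control replicate 5. The mean log2 CPM over the 49 members was 6.82 to 6.97 in the stressed libraries and 7.12 to 7.34 in the controls, and the groups did not overlap on this score. The score includes the 14 genes that the rule picked from the same values, so its separation is a description and no separate support. Within the runs of library numbers that each hold 1 library of every group, the stressed mean of the score minus the control was -0.27 for replicates 5, 6 and 8, -0.44 for replicates 9, 10 and 12, and -0.18 for replicates 13, 14 and 15.

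The interferon genes were also looked at by regime. The comparisons of HIGHGLUC and of LOWAA with control share the control libraries, so their values are set side by side. The median log2 fold change of the 49 members was -0.26 for HIGHGLUC and -0.31 for LOWAA. In the comparison of LOWAA with HIGHGLUC, which shares no library with the control, edgeR called 0 of 11839 genes (0.0%) with a smallest adjusted p of 1.00, and 376 genes (3.18%) had an unadjusted p under 0.05. Of the interferon members 36 were lower in LOWAA than in HIGHGLUC, where 49.9% of all tested genes were, and 3 of the 49 had an unadjusted p under 0.05. PARP14 was one of these, with -0.26 for HIGHGLUC, -0.59 for LOWAA and an unadjusted p of 0.0086 for the difference. CMPK2 and ISG15 differed less between the regimes, with unadjusted p-values of 0.76 and 0.53.

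The remaining low genes named by the rule were no members of the interferon list. MORC3, a chromatin ATPase of PML nuclear bodies at chr1:150307554-150349311 (UMD3.1), had 68.2, 56.99 and 55.8 CPM in HIGHGLUC, 55.5, 58.3 and 56.2 CPM in LOWAA and 71.9, 87.6 and 73.0 CPM in control libraries. Apart from HIGHGLUC replicate 6, the stressed libraries of MORC3 lay within 55.5 to 58.3 CPM. Its log2 fold change was -0.41 ± 0.09 (SE). PNPT1, the mitochondrial polynucleotide phosphorylase, averaged 170 ± 17.4 CPM in stressed and 210 ± 5.54 CPM in control libraries (SD, n = 6 and 3). ZC3H6, a zinc finger gene, had 6.79, 7.48 and 6.51 CPM in HIGHGLUC, 5.57, 4.46 and 5.98 CPM in LOWAA and 11.99, 9.71 and 7.85 CPM in control libraries, a log2 fold change of -0.65 ± 0.17 (SE). USP25, a deubiquitinase, averaged 63.6 ± 4.96 CPM in stressed and 77.3 ± 7.06 CPM in control libraries. GRAMD2 averaged 15.4 ± 1.61 CPM in stressed and 20.2 ± 0.30 CPM in control libraries. TRIM38 and IFITM1, chosen after their values were seen, also lay below the controls without being on the list. IFITM1, an interferon-induced membrane protein, averaged 654 ± 34.6 CPM in stressed and 779 ± 89.0 CPM in control libraries (log2 fold change -0.25, and -0.16 without control replicate 9), and TRIM38, a ubiquitin ligase of innate immunity, 49.5 ± 3.76 CPM in stressed and 59.6 ± 1.49 CPM in control libraries.

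Among the named genes on the high side ERRFI1 had the smallest unadjusted p, although its gap of 0.017 log2 units was under the median gap of 0.031. ERRFI1 encodes a feedback inhibitor of the EGF receptor and in the mouse uterus is a target of progesterone. ERRFI1 lies at chr16:46201191-46215455 (UMD3.1) and had 144, 109 and 118 CPM in HIGHGLUC, 150, 161 and 148 CPM in LOWAA and 108, 93.7 and 100.2 CPM in control libraries. All 3 LOWAA libraries and HIGHGLUC replicate 6 lay well above the controls, while HIGHGLUC replicate 10 lay just above control replicate 5. The log2 fold change of ERRFI1 was 0.46 ± 0.09 (SE), with 0.31 for HIGHGLUC and 0.61 for LOWAA, and the difference between the regimes had an unadjusted p of 0.013 and an adjusted p of 1.00 in edgeR. LPAR3, a receptor for lysophosphatidic acid that is needed for embryo spacing in the mouse uterus, had 81.5, 89.5 and 78.4 CPM in HIGHGLUC, 86.5, 86.2 and 84.0 CPM in LOWAA and 73.3, 66.9 and 72.1 CPM in control libraries. Its log2 fold change was 0.26 ± 0.07 (SE), and both regimes gave nearly the same value, 0.24 for HIGHGLUC and 0.28 for LOWAA. SFRP5, a secreted inhibitor of Wnt proteins, had 25.9, 26.7 and 25.9 CPM in HIGHGLUC, 38.6, 33.8 and 28.4 CPM in LOWAA and 22.6, 23.2 and 24.2 CPM in control libraries. The LOWAA libraries were the highest for SFRP5, with log2 fold changes of 0.16 for HIGHGLUC and 0.52 for LOWAA and an unadjusted p of 0.010 for the difference. VGLL4, a cofactor of TEAD proteins, averaged 42.2 ± 4.05 CPM in stressed and 33.9 ± 2.05 CPM in control libraries (SD, n = 6 and 3).

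The named genes above the controls also held EIF2AK3, ORMDL3, SMPD2 and YIF1A. EIF2AK3, the kinase PERK that answers unfolded protein in the endoplasmic reticulum by phosphorylating eIF2-alpha, had 69.9, 73.7 and 67.7 CPM in HIGHGLUC, 80.5, 71.2 and 70.1 CPM in LOWAA and 66.3, 50.8 and 62.97 CPM in control libraries. Its log2 fold change was 0.28 ± 0.09 (SE), and 0.17 without control replicate 9, the lowest library. ATF6, another sensor of the same stress and chosen here after its values were seen, lay on the other side, with 66.7 ± 2.92 CPM in stressed and 71.9 ± 0.75 CPM in control libraries. ORMDL3, a regulator of sphingolipid synthesis in the endoplasmic reticulum, averaged 184 ± 19.5 CPM in stressed and 154 ± 4.27 CPM in control libraries, with log2 fold changes of 0.15 for HIGHGLUC and 0.35 for LOWAA. SMPD2, a neutral sphingomyelinase, had 21.3, 19.3 and 21.1 CPM in HIGHGLUC, 19.7, 20.1 and 20.3 CPM in LOWAA and 15.9, 16.3 and 16.9 CPM in control libraries. The libraries of SMPD2 were tight within both sides, with a gap of 0.20 log2 units between them. YIF1A, which works in transport between the endoplasmic reticulum and the Golgi, averaged 50.0 ± 2.89 CPM in stressed and 42.4 ± 1.01 CPM in control libraries.

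The last named genes on the high side had no role in common in the lists. C11orf49 had 8.26, 8.01 and 8.96 CPM in HIGHGLUC, 7.92, 7.94 and 8.05 CPM in LOWAA and 5.64, 6.05 and 5.62 CPM in control libraries. Its gap of 0.39 log2 units was wide beside the median gap of 0.031, at a log2 fold change of 0.50 ± 0.14 (SE). FBXO9, an F-box subunit of a ubiquitin ligase, averaged 137 ± 2.72 CPM in stressed and 114 ± 16.1 CPM in control libraries. RSG1, a small GTPase of ciliogenesis, averaged 30.4 ± 1.95 CPM in stressed and 25.04 ± 1.26 CPM in control libraries, and WBP1 22.3 ± 2.78 CPM in stressed and 17.5 ± 1.16 CPM in control libraries. Of the 134 genes above, 4 had an unadjusted p under 0.05 between LOWAA and HIGHGLUC, where 3.18% of all genes did, namely ERRFI1, ORMDL3, SFRP5 and HIC1. Of the 122 genes below, 0 did, and no adjusted p in either set passed 0.05.

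**Figure D2:**
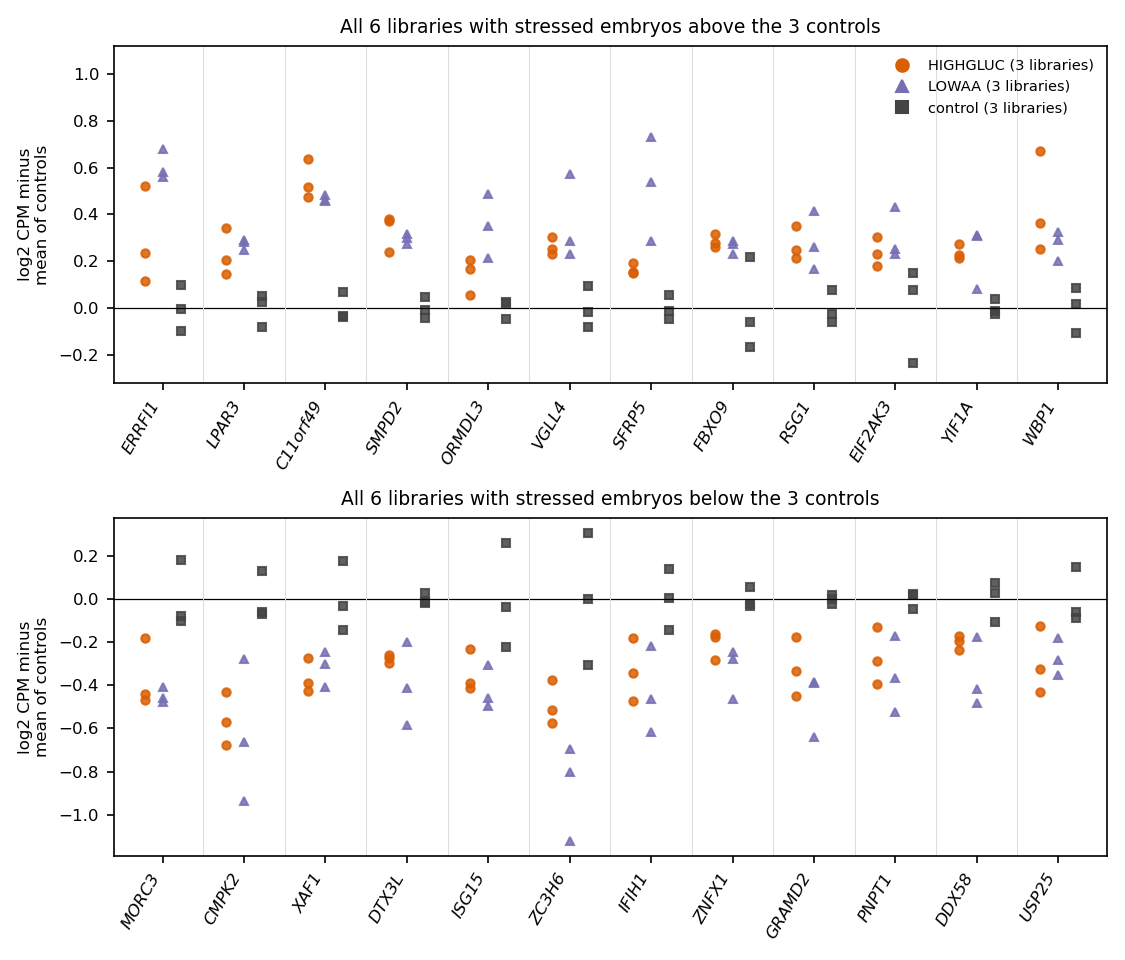
Each point is 1 library, plotted as log2 CPM minus the mean of the 3 controls, for the 12 named genes above the controls (upper panel) and the 12 below (lower panel), in order of p within a panel. ERRFI1 and SFRP5 have their highest points in LOWAA, C11orf49 and SMPD2 have tight groups, and the control points of FBXO9, EIF2AK3 and ISG15 are spread.

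Intron reads of the same libraries gave a further readout that the rule did not use, although from the same cells and contrast. Of the genes without overlap in exon reads, 101 above and 109 below had enough intron reads to be tested. The intron difference had the direction of the exon difference in 61 of the 101 and 71 of the 109, where 53% of the 9206 genes tested in both did. All 6 libraries lay on the same side of the controls in introns for 0 of the 101 genes above and 4 of the 109 below (3.67%). Over the 9713 genes tested in introns 0.988% lay above and 1.07% below. The 4 genes were MX2, SPATS2L, TACO1 and DYRK1A. DYRK1A, a protein kinase, had a log2 fold change of -0.61 in introns and -0.20 in exons. TACO1, a translational activator of a mitochondrial oxidase subunit, had -0.63 in introns and -0.60 in exons.

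The interferon list kept its direction in introns. Of 40 members tested there 35 were lower, where 50.5% of the 9206 genes were, with a median log2 fold change of -0.29. PARP9, Mx1, MX2, IFI44, PARP12, ZBP1 and TRIM25 lay below the controls without overlap in introns, 7 of 40 where 1.07% of all genes did, and only MX2 of these did so in exons. IFI44 had a log2 fold change of -0.85 in introns and -0.54 in exons, the exon value being -0.32 without control replicate 9. STAT2 was among the 5 that were higher, with 0.47 in introns and -0.20 in exons. Of 197 other genes without overlap in exons 120 had the exon direction in introns, beside 35 of the 40 interferon members. ERRFI1 had 0.38 in introns, while MORC3 had 0.24, opposite to its exon difference. Intron counts are sparser than exon counts, and no gene passed the intron test of edgeR, where the smallest adjusted p was 0.96 and 402 genes had an unadjusted p under 0.05.

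**Figure D3:**
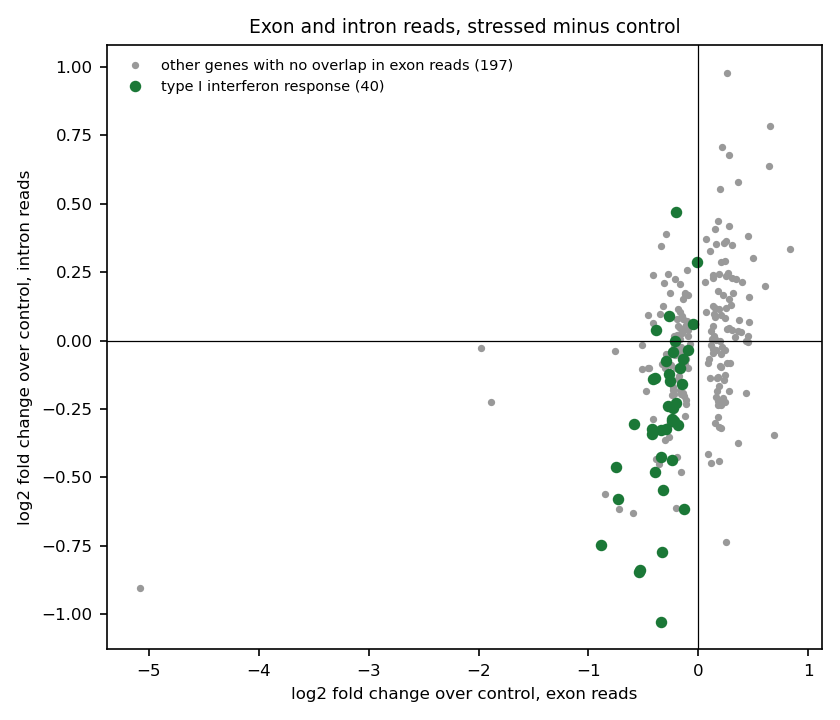
Each point is 1 gene, with its stressed over control log2 fold change in exon reads (x axis) and in intron reads (y axis), for 40 interferon response genes (large points) and 197 other genes without overlap in exon reads (small points). Of the interferon genes 35 of 40 have the same sign on both axes, as do 120 of the 197 other genes, and a single point at an exon value of -5.09 is ENSBTAG00000040367.

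Among the other gene lists, the mitochondrially encoded genes had the highest median. All 12 tested members were higher in stressed libraries, at a median log2 fold change of 0.27, with 0.22 for HIGHGLUC and 0.31 for LOWAA, but 0 of them separated the groups. Without control replicate 9 the median was 0.14, and without control replicate 13 it was 0.49. cytb, the cytochrome b gene, had 1073, 981 and 1416 CPM in HIGHGLUC, 1082, 1015 and 1503 CPM in LOWAA and 788, 605 and 1121 CPM in control libraries, a log2 fold change of 0.49 ± 0.23 (SE), with 0.31 without control replicate 9 and 0.76 without control replicate 13. Control replicate 13 was above 4 of the 6 stressed libraries. COX1 averaged 19421 ± 2457 CPM in stressed and 17736 ± 3323 CPM in control libraries, with a log2 fold change of 0.13, 0.013 without control replicate 9, 0.28 without control replicate 13 and 0.054 without LOWAA replicate 15. The difference of the list score within the runs of library numbers was 0.27, 0.50 and 0.13, and the spread within groups was 0.26 (SD). The nuclear-encoded respiratory chain stayed near 0, where 16 of 29 members were higher and the median was 0.0084. In cytoplasmic ribosomal proteins 16 of 29 were higher with a median of 0.0031, and RPS7 lay above the controls with 532 ± 30.0 CPM in stressed and 471 ± 27.6 CPM in control libraries.

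Lists on nutrients showed little common movement. In the ATF4 and amino acid response 16 of 30 were higher, with a median of 0.0097, -0.06 for HIGHGLUC and 0.03 for LOWAA. SLC3A2, the heavy chain of amino acid exchangers, was its single member above the controls, with 333 ± 19.9 CPM in stressed and 311 ± 5.36 CPM in control libraries. CHAC1, a glutathione-degrading enzyme and target of ATF4, had 2.38, 1.97 and 4.34 CPM in HIGHGLUC, 4.89, 5.08 and 3.70 CPM in LOWAA and 2.12, 1.48 and 2.03 CPM in control libraries, so that HIGHGLUC replicate 10 overlapped the controls. In aminoacyl-tRNA synthetases 7 of 18 were higher with a median of -0.02, and in endoplasmic reticulum chaperones 13 of 19 with a median of 0.06. In glucose uptake and sensing 9 of 14 were higher with a median of 0.06. TXNIP had 538, 375 and 310 CPM in HIGHGLUC, 213, 163 and 208 CPM in LOWAA and 383, 432 and 365 CPM in control libraries. All 3 LOWAA libraries of TXNIP lay below every control, while the HIGHGLUC libraries lay on both sides of them, so that pooling both regimes mixed log2 fold changes of 0.05 for HIGHGLUC and -1.01 for LOWAA, with an unadjusted p of 0.00029 and an adjusted p of 1.00 in edgeR for the difference. In glycolysis and pentose phosphate 10 of 22 were higher with a median of -0.0053.

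Further lists leaned low by small amounts. Of 23 genes of cholesterol synthesis and uptake 21 were lower, with a median of -0.10, -0.10 for HIGHGLUC and -0.09 for LOWAA. With control replicate 9 left out the median of this list was -0.030, and with HIGHGLUC replicate 10 left out it was -0.18. NSDHL, a sterol dehydrogenase, was its single member below the controls, with 66.6 ± 5.17 CPM in stressed and 73.8 ± 1.11 CPM in control libraries. Of 34 genes of cell cycle and mitosis 29 were lower with a median of -0.08, with -0.27 for HIGHGLUC and 0.08 for LOWAA. HIGHGLUC replicate 6 stood apart, with a list score of 4.43 (mean log2 CPM). The score was 5.59 and 5.22 in HIGHGLUC replicates 10 and 14 and 5.35 to 5.67 in LOWAA. The pooled median was 0.04 without HIGHGLUC replicate 6, 0.08 without control replicate 9 and -0.24 without HIGHGLUC replicate 10. In the heat shock response 12 of 16 were lower with a median of -0.05. Signalling lists held single members without overlap. HEY1, a transcription factor downstream of Notch at chr14:45126101-45128997 (UMD3.1), had 2.26, 2.23 and 3.33 CPM in HIGHGLUC, 1.95, 1.74 and 1.85 CPM in LOWAA and 3.88, 4.36 and 4.55 CPM in control libraries. The libraries of HEY1 held few reads, and its log2 fold change of -0.98 ± 0.21 (SE) rested on these. The Notch list as a whole had 8 of 10 members lower with a median of -0.08. Wnt modulators and targets had 11 of 16 higher with a median of 0.05, and SFRP5 was the single member without overlap. EGF receptor and MAPK feedback genes had 13 of 21 higher with a median of 0.05, and ERRFI1 was the single member without overlap.

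The other lists had 0 members without overlap, and with all 9 libraries their medians lay within 0.06 of 0. Control libraries moved some of them, since the median of the inflammatory list was 0.31 without control replicate 13, and that of the immediate early factors was -0.16 without control replicate 9 and 0.18 without control replicate 13. Immediate early factors had 11 of 24 members higher (median -0.0068, with 0.12 for HIGHGLUC and -0.13 for LOWAA). BMP and TGF-beta targets had 11 of 20 higher (median 0.04), p53 targets and stress kinases 6 of 15 (-0.05), and uterine transcription factors and receptors 8 of 15 (0.0090). Conceptus-responsive endometrial genes had 9 of 20 higher (median -0.02), inflammatory cytokines and chemokines 4 of 8 (0.04), and collagens and matrix genes 16 of 29 (0.0089). Lysosome and autophagy genes had 12 of 23 higher (median 0.00044), SR splicing factors 8 of 15 (0.01), and circadian clock genes 4 of 11 (-0.04).

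**Figure D4:**
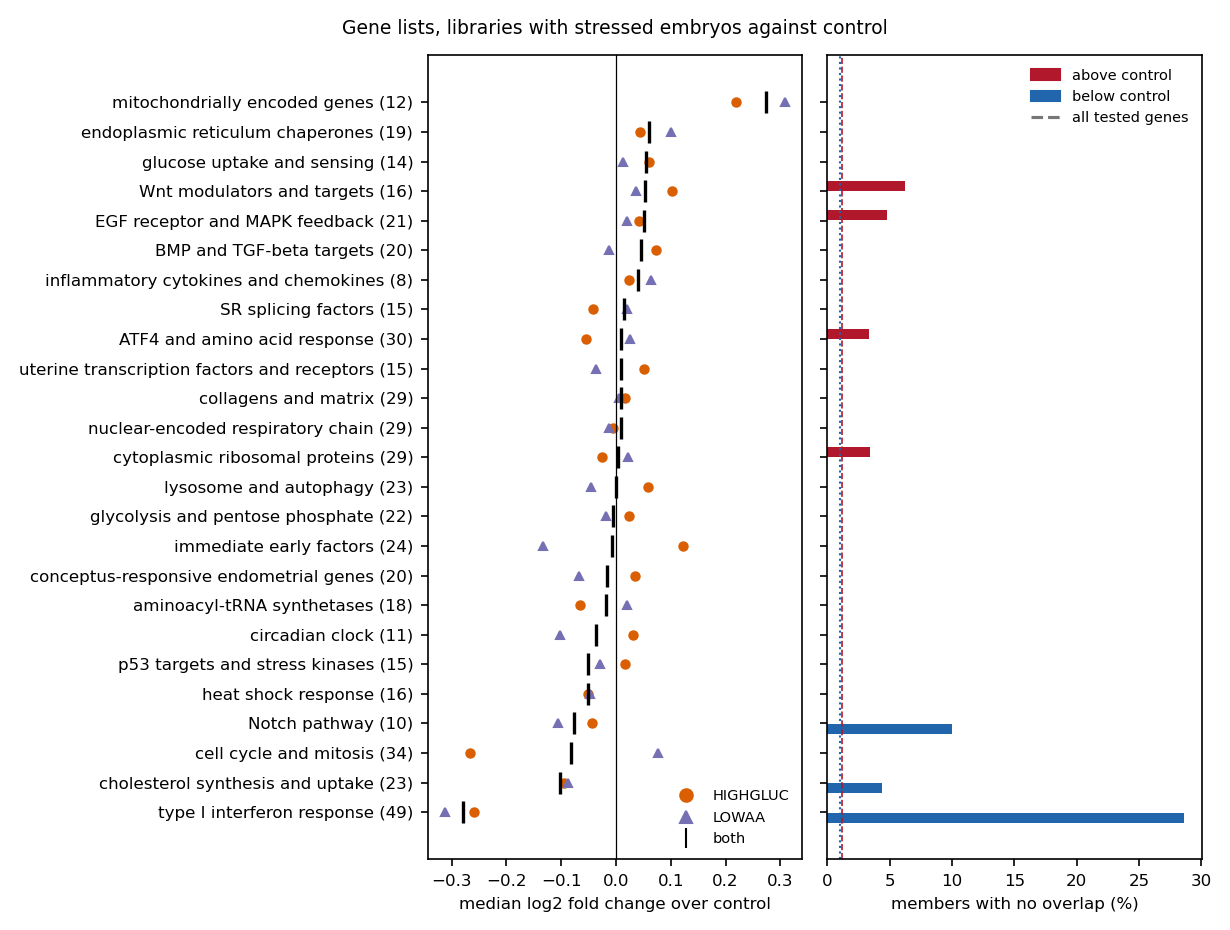
For 25 gene lists (number of tested members in brackets), the left panel gives the median log2 fold change over control for HIGHGLUC (circles), LOWAA (triangles) and both together (bars), and the right panel the percent of members above (upper bars) or below (lower bars) the controls without overlap, with lines at 1.13% and 1.03% for all tested genes. The interferon list has the lowest median at -0.28 and 28.6% of its members below, and the mitochondrially encoded genes have the highest median at 0.27 with no bar.

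The genes without overlap also differed in length, a property that the rule did not use and that was looked at after the lists were seen. The median exon length was 1868 bases for genes above and 2422.5 bases for genes below, beside 2014 bases for all tested genes. The share of genes above was 1.11%, 1.32%, 1.32% and 0.778% in 4 equal bins from the shortest to the longest exon length, and the share below was 0.777%, 0.810%, 1.18% and 1.35%. The longest minus the shortest bin, as a mean log2 difference, ran from -0.081 to 0.053 log2 units over the stressed libraries and from -0.12 to 0.083 over the controls, and the part of length in the calls was not tested. Genes above had a median level of 26.7 CPM and genes below of 54.8 CPM, beside 27.6 CPM for all tested genes.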

How the data were processed

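Values were taken from 1 deposited table of 24596 genes and 231 columns. Per the file headers, total exon reads, unique exon reads and intron reads are raw counts per gene. A further signal column per library was deposited after quantile normalisation, as the sorted values are the same in all 9 libraries. RPKM values deposited by the authors served for description alone. Exon lengths and positions are other deposited annotation columns, while 81 further value columns were left aside. Per the submitters' processing notes Bowtie2, HTSeq 0.5.4p2 and UMD3.1 were used, without their roles. Of 24596 genes, 6055 carry only an identifier and 3989 an exon length of 0.

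Genes were kept with filterByExpr (minimum count 10), normalised by TMM and fitted with edgeR's robust quasi-likelihood method, edgeR 4.0.16 in R 4.3.3, with a term of 3 groups and the contrast of the mean of HIGHGLUC and LOWAA minus control. The adjusted p threshold was 0.05. Levels are TMM CPM, except for cell type markers, given as plain CPM. The list scores use log2 CPM with a prior count of 2, while the plots of single libraries use none. DESeq2 1.42.0 and limma 3.58.1 were alternatives. Chi-square over degrees of freedom was 8.37 to 27.0 between libraries of the same group, well above counting noise. The floor of 3 reads covers counting error only, since PCR reads are not independent molecules.

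Genes are named by a rule: the 12 with the smallest p per direction among symbols without overlap in total and unique exon reads and averaging 5 CPM or more, plus up to 4 members of each list by p. Not all genes chosen by it are described. Further list members, and the genes that separate the groups in introns, lie at the edge of the rule or differ over 1 on the log2 scale, were picked after their values were seen. Whether reads were counted by strand is not given in the sources used here, so genes that overlap or have near copies, such as the OAS1, MX and IFIT genes, are less certain. Members and lists were chosen with earlier results of these data known. Runs of library numbers (5, 6, 8; 9, 10, 12; 13, 14, 15) hold 1 library of each group and were tried as a block.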

Additional observations from a re-analysis of the deposited data

Results flagged for a closer look

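A library that stood far from the other 5 stressed libraries was found for 12 of 175 values examined, with a Dixon ratio over 0.625, and chance flags about 1 in 20 groups. Among genes of the comparison, C11orf49 stood out in HIGHGLUC replicate 14 with 8.96 CPM, against 7.92 to 8.26 CPM in the others (ratio 0.671). GRASP, a rare transcript, had 1.58 CPM in HIGHGLUC replicate 10, against 0.977 to 1.16 CPM (0.70). VGLL4 had 50.3 CPM in LOWAA replicate 12, against 39.8 to 41.8 CPM (0.811). WBP1 had 27.8 CPM in HIGHGLUC replicate 14, against 20.0 to 22.4 CPM (0.693), and HEY1 had 3.33 CPM there, against 1.74 to 2.26 CPM (0.668). MORC3 had 68.2 CPM in HIGHGLUC replicate 6, against 55.5 to 58.3 CPM (0.783). These libraries kept the side of their group, since all 6 genes are without overlap.

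Among list members, PFKP had 54.4 CPM in HIGHGLUC replicate 6, against 59.5 to 62.3 CPM (0.643). INSIG1 had 113 CPM in HIGHGLUC replicate 10, against 57.4 to 71.0 CPM (0.755), and BAMBI had 171 CPM there, against 136 to 146 CPM (0.720). CTGF had 1481 CPM in LOWAA replicate 8, against 1070 to 1215 CPM (0.648), and ETV5 had 41.0 CPM in LOWAA replicate 15, against 31.6 to 35.0 CPM (0.638). The cell cycle score was 4.43 in HIGHGLUC replicate 6, against 5.22 to 5.67 (mean log2 CPM, ratio 0.635).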

How the results depend on the processing

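The call of 0 genes held with unique reads, each other scaling, each filter, DESeq2, limma-voom, a term of 2 levels and without each library. It did not hold with the runs of library numbers as a replicate block. With this block edgeR called 16 of 11839 genes in stressed minus control (5 higher, 11 lower). Among the 16 were ERRFI1 (adjusted p 0.0107), ISG15 (0.00817), MORC3 (0.0417) and cytb (0.000943). OAS1X, Mx1, IFIH1, PARP14 and DTX3L of the interferon list and the mitochondrially encoded ND5 and COX3 were also called. With the block joined to unique reads, an alternative chosen after seeing the data, edgeR called 35 genes. For LOWAA minus HIGHGLUC, DESeq2 called 3 genes, TXNIP and ZFP36 among them, the replicate block 17, and the block with unique reads 36. In total exon reads, which the comparison uses, 7 of 9 same-run pairs of libraries deviated together with a correlation over 0.1 (0.022 to 0.606), as did 6 of 18 other pairs (-0.70 to 0.42), so the numbers were not taken as pairs. In unique reads 9 of 9 same-run pairs did (0.198 to 0.452) and 0 of 18 other pairs (highest 0.032), which is a hint from the data that the runs share something, not a fact of the design. The biological coefficient of variation was 0.107 with the block and 0.171 without it. The cause of the differing counts was not tested.

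Genes without overlap numbered 110 to 157 above and 112 to 139 below under other reads, scalings and filters. Without 1 library they numbered 177 to 458 above and 154 to 470 below, and the interferon members below 13 to 23. The interferon median stayed between -0.31 and -0.21 under 20 alternatives. Of 2983 values of genes described or named by the rule 16 changed sign. RPS16 had 0.36 with unique reads and 0.43 with these and the block, and IRF7 0.014 and 0.025. Without 1 library the log2 fold changes ran from -4.26 to 0.41 for RPS16, -0.18 to 0.012 for LFNG and -0.15 to 0.016 for CSF1, each highest without control replicate 5. They ran from -0.13 to 0.028 for PGD, -0.15 to 0.031 for PFKP and -0.29 to 0.015 for BUB1, each highest without control replicate 9, and from -0.050 to 0.22 for NKD1 and -0.0028 to 0.21 for HOXA10, both lowest without that library. For IRF7 they ran from -0.068 to 0.046, and for UBE2L6 from -0.27 to 0.072. Control replicate 5 had the fewest reads and limits what the control side shows for genes of few reads.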
